A study of Mus musculus with 12 samples.

Results

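Wild type fetal mouse kidneys kept in culture were compared with one another, as 3 arrays from the higher and 3 from the lower of the runs of numbers that the sample titles form. These 6 arrays were chosen by genotype and title number alone, out of 12 in the series; the other 6 came from kidneys with activated beta-catenin, which relays canonical Wnt signals to target genes. The lower run holds the wild type titles MKI3014N, MKI3017N and MKI3018N and the higher run MKI3109N, MKI3110N and MKI3115N. The labels do not say what the numbers stand for, so the run cannot be told apart from any batch, culture time or other condition that went with it.

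All 12 samples came from the C57BL/6 strain. Pregnant mothers of both genotypes, controls included, were injected with tamoxifen (2 mg for each 40 g of mouse) 10.5 days post coitum, and kidneys taken at 10.5 days were grown for 3 to 4 days on Transwell membranes with F12 and DMEM medium, to which transferrin and insulin (5 ug/mL each) and selenium (5 ng/mL) were added. The labels do not say which cultures had 3 and which had 4 days, which Cre line or beta-catenin allele the activated kidneys carried, or that samples came from separate animals. The p-values below therefore measure the spread between these samples, which may in part be technical.

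The mouse kidney forms when the ureteric bud, an epithelial tube, grows into the metanephric mesenchyme. The bud branches and its stalk becomes the collecting duct, cap mesenchyme cells around its tips turn into nephrons, and Foxd1-positive stroma surrounds both. In a cultured kidney there is no blood flow, so red cells and macrophages are those present at dissection and whatever they give rise to. NF-kB and STAT3 are transcription factors through which inflammatory cytokines and the interleukin-6 family act on many cell types, kidney epithelium among them.

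Signal is given as log2(intensity + 16), quantile-normalised over the 12 arrays, and a difference is always the higher minus the lower run on that scale. Folds are on the same scale, which understates the change of dim genes. Bacterial control transcripts that were not added to the samples read at most 5.45, and a gene at or under that level was not above background. Where all 3 arrays of a run were at or under it, the fold is given as a bound against 5.45, with the fitted difference beside it. Where only some were, the number of arrays above it is given for the genes described in full, and the size of the difference then rests in part on background signal. Kidney markers were present in all 6 arrays: Six2, the transcription factor that maintains nephron progenitors, lay between 9.72 and 10.32, and Wt1, of progenitors and podocytes, between 9.40 and 9.72. The podocyte slit diaphragm gene Nphs1 lay between 5.03 and 5.64, at about the level of the controls.

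The arrays stood apart by run. The first principal component held 37.9% of the variance among the 6 arrays with scores of -30.1 to -20.1 for lower-run arrays and 22.7 to 24.5 for higher-run arrays. Pearson's r between arrays, across genes, was 0.966 to 0.974 within the lower run, 0.974 to 0.981 within the higher run and 0.952 to 0.966 between runs. One array of each run, array 2 of both, had high Xist and low Y-linked signal. The 18 probe sets for bacterial transcripts added at hybridisation averaged 10.02 ± 0.21 in the lower and 9.44 ± 0.04 in the higher run on the deposited scale (SD, n = 3 each), and each of the 18 was higher in every lower-run array (two-sided exact permutation test of the mean, p = 0.1, the smallest that 3 against 3 allows). The mean log2 ratio of 5' to 3' control signal, a measure of RNA and labelling quality, was -1.92 ± 0.43 and -2.07 ± 0.19 (exact p = 0.7). The part of the added controls in the differences below was not tested.

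Of 12393 genes, 631 (5.09%) passed limma's test at a Benjamini-Hochberg adjusted p of 0.05, 410 (3.31%) higher and 221 (1.78%) lower in the higher run, and 2439 had an unadjusted p under 0.05. The rises were larger than the falls, since 229 of the genes that were higher and 39 of those that were lower differed by at least 2-fold. In all 631 the runs did not overlap; over all genes the higher run lay wholly above the lower in 1527 (12.3%) and wholly below it in 1603 (12.9%). The median difference over all genes was -0.02. These are whole kidneys, in which more cells of a type and more RNA per cell cannot be told apart. The count rested on single arrays in part: it was 399 without lower-run array 3 and 226, 249 and 387 without higher-run arrays 1, 2 and 3. It was 172 without both Xist-high arrays, an alternative chosen after the data were seen.

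**Figure D1:**
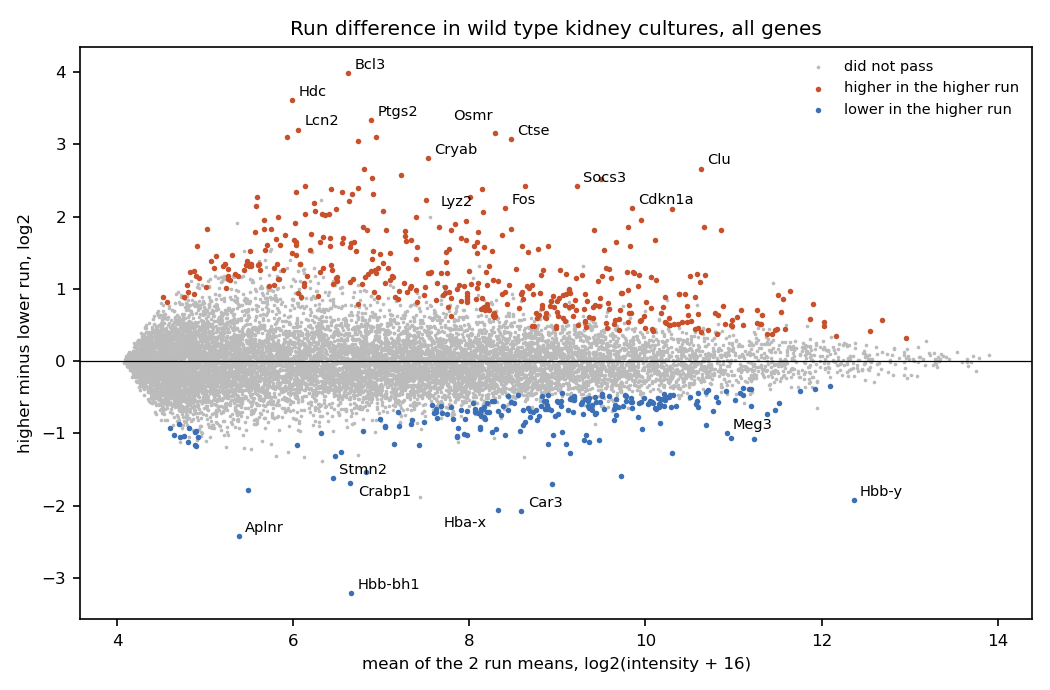
Each point is a gene, with the mean signal of the 2 run means on the horizontal axis and the higher minus lower run difference on the vertical axis, both on the log2(intensity + 16) scale, for 3 wild type arrays per run. Coloured points passed limma's test, 410 above zero and 221 below; Bcl3 has the largest fitted rise (3.99) and Hbb-bh1 the largest fitted fall (-3.21), each with signal at or near the control level in its dimmer run.

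Genes of the inflammatory and NF-kB response were among the largest rises and made up 5 of the top 15. Bcl3, an atypical member of the IkB family that binds NF-kB in the nucleus, was at 5.45, 4.17 and 4.28 in lower-run arrays 1 to 3 and at 8.53, 8.67 and 8.64 in the higher run, at least 8.96-fold higher (fitted difference 3.99, SE 0.33, limma adjusted p = 0.000398). Ptgs2, the inducible cyclooxygenase of prostaglandin synthesis, was at 4.91, 5.09 and 5.64 and then at 8.19, 8.90 and 8.55, a difference of 3.34 (SE 0.27, adjusted p = 0.000345), with 1 of 3 lower-run arrays above the control level. Both went from about the level of the controls to clear signal in every higher-run array. The adhesion receptor gene Icam1 was at 5.75, 5.48 and 4.94 and at 8.69, 8.17 and 8.60 (difference 3.09, SE 0.26, adjusted p = 0.000398), with 2 of 3 lower-run arrays above it.

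Among chemokine genes several passed. Ccl2, which attracts monocytes, was at 5.61, 4.96 and 5.06 in the lower run and at 8.17, 8.64 and 7.96 in the higher run (3.05, SE 0.26, adjusted p = 0.000453), with 1 of 3 lower-run arrays above the control level. Ccl20, which attracts cells with the receptor Ccr6, was at 4.25, 4.30 and 4.59 and at 7.37, 7.38 and 7.70, at least 4.08-fold higher (fitted difference 3.10, adjusted p = 0.000235). The monocyte attractant Ccl12 (2.34) and the neutrophil attractants Cxcl1 (2.15, at least 2.29-fold) and Cxcl2 (1.53, at least 1.99-fold) passed as well, and so did Ccl3 (1.53), which is outside the list below. Cxcl13, which attracts B cells and is outside it too, was lower (-1.16, SE 0.27, adjusted p = 0.0419). In each of these 7 genes the runs did not overlap, as in all 631 genes that passed.

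In the inflammation and NF-kB list, 16 of 35 measured genes were higher, against 3.31% of all genes, 0 were lower, and the median was 0.97. This list was written after values of these data had been seen, so its count is a description. Besides the genes above it held inhibitors and partners of NF-kB, namely Nfkbia (0.79), Nfkbiz (1.5) and Relb (1.14, at least 1.29-fold). It also held Tnfaip2 (2.38), the interleukin-1 receptor gene Il1r1 (1.99, at least 2.58-fold), the apoptosis inhibitor Birc3 (1.29), the macrophage growth factor Csf1 (1.41, with -0.33 at another of its 4 probe sets) and the mitochondrial superoxide dismutase Sod2 (0.41). The cytokine genes Tnf (-0.09, adjusted p = 0.933) and Il1b (-0.18, adjusted p = 0.811) did not pass and lay near the control level. Neither did Rela (0.69, adjusted p = 0.0629), which encodes a main NF-kB subunit and lay at 7.66 to 8.82. Without single arrays 12 to 16 members passed, and 11 without both Xist-high arrays.

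Promoters of several of these genes hold a match to the NF-kB motif, GGGRNWYYCC. In it R is A or G, W is A or T, Y is C or T and N is any base. The motif was searched on both strands in the 250 bases before the start of each gene in the RefSeq promoter table of GRCm38.p6. By gene symbol, 9887 of the tested genes were matched to that table. Of these, 5.47% held a match, against 10.4% of 317 genes called higher, 3.33% of 180 called lower and 14 of 28 measured inflammation genes with a promoter (50.0%). Of the 13 inflammation genes with a promoter that had passed the test, 7 held a match (53.8%), a share near that of the measured members. The list was drawn up as genes of the NF-kB response, after values had been seen. Its share of NF-kB matches follows in part from that choice and tests nothing about the runs. These shares count a gene when any of its promoters held a match. Counted by single promoter, which is not the same measure, the share over all 32851 promoters of the table was 3.90%. The motif of STAT factors, TTCNNNGAA, was in 7.31% of tested promoters, 9.46% of those called higher and 7.22% of those called lower, and that of AP-1, TGANTCA, in 6.84%, 8.20% and 2.78%. Among the inflammation genes, AP-1 matches were in 7 of 28 measured and 0 of 13 called higher, and STAT matches in 4 of 28 and 2 of 13. A match is a description of letters and not a measured site. Stretches from genes called higher are shown because they carry these matches, in capitals: Ccl20 at chr1:83116641-83116740 (plus strand), Cxcl1 at chr5:90891129-90891229 (plus), Cxcl2 at chr5:90903757-90903857 (plus), Nfkbia at chr12:55492648-55492721 (minus) and, for the STAT motif, Socs3 at chr11:117969467-117969565 (minus).
Ccl20: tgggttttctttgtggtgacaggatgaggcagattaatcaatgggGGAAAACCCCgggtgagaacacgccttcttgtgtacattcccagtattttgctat
Cxcl1: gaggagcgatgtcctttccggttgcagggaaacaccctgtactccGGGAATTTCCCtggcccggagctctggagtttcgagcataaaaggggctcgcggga
Cxcl2: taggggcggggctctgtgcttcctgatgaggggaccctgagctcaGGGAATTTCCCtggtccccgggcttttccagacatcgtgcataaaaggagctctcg
Nfkbia: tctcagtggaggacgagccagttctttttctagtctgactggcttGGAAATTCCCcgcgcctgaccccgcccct
Socs3: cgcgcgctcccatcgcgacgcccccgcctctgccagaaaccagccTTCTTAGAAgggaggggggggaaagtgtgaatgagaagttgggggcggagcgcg

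Receptors and signal carriers of the interleukin-6 family were higher together. Osmr, the oncostatin M receptor, was at 6.5, 6.69 and 6.94 in the lower run and at 9.92, 10.08 and 9.62 in the higher run, a difference of 3.16 (SE 0.17, adjusted p = 4.1e-05). Il6st, the shared receptor chain gp130 (1.22), Lifr, the receptor for leukemia inhibitory factor (0.84), the kinase gene Jak1 (0.75) and Stat3 (1.64, SE 0.20, adjusted p = 0.00267) passed too. One of 3 probe sets of Stat3, dimmer than the others, differed by -0.52.

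The feedback inhibitor gene Socs3 was at 7.94, 8.06 and 8.03 and at 10.35, 10.63 and 10.32 (2.42, SE 0.12, adjusted p = 3.12e-05). The transcription factor genes Cebpb (2.42) and Cebpd (1.67), the protease inhibitors Timp1 (1.83) and Serpina3n (1.82, at least 2.3-fold) and the second Socs gene of the list, Socs2 (1.07), were higher. A dimmer probe set of Cebpd, with run means of 5.85 and 5.71, differed by -0.14. In all, 12 of 31 measured members were higher, against 3.31% of all genes, and 0 lower, with a median of 0.75, in a list that was also written after values had been seen. The ligand genes Il6 (1.18, adjusted p = 0.0632) and Lif (0.91, adjusted p = 0.0611) did not pass, and Il11 differed by 0.37 (adjusted p = 0.673). Between 10 and 12 members passed without single arrays.

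**Figure D2:**
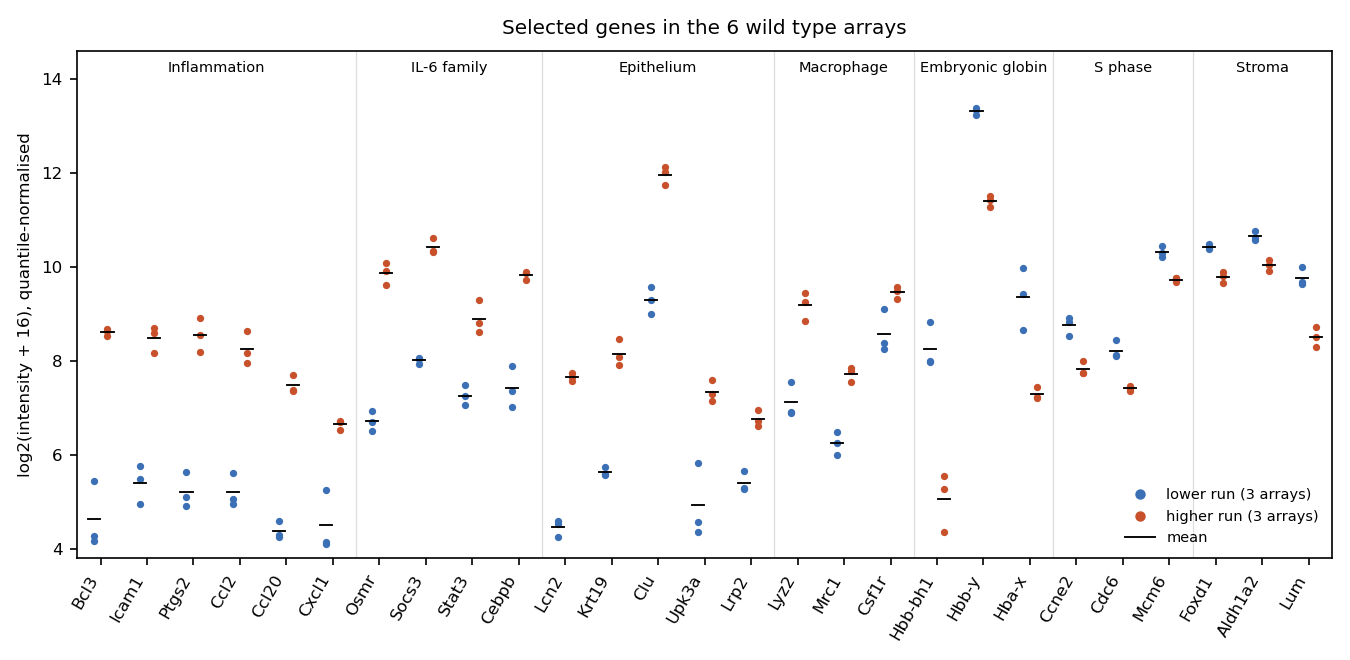
Signal of single genes in the 6 wild type arrays, on the log2(intensity + 16) scale, with lower-run arrays in blue, higher-run arrays in orange and short lines for the means of 3. Genes of inflammation, interleukin-6 signalling and epithelium lie higher in the higher run, while the embryonic globins, S phase genes and the stromal genes Foxd1, Aldh1a2 and Lum lie lower. The stromal genes Penk, Snai2 and Dcn, which passed as higher in the higher run, are not shown. Csf1r passed limma's test with an adjusted p of 0.0497 and the smallest gap between its runs among the macrophage genes shown. Its probe sets that are not shown differed by -0.10 and 0.99.

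Genes known from injured tubule epithelium were higher as well. Lcn2, a siderophore-binding protein released by distal and collecting duct cells, was at 4.52, 4.6 and 4.24 and then at 7.74, 7.57 and 7.66, at least 4.61-fold higher (fitted difference 3.20, SE 0.22, adjusted p = 0.000192). Clu, the secreted chaperone clusterin, was already bright at 9.59, 9.01 and 9.30 and lay at 11.74, 12.02 and 12.12 in the higher run (2.66, SE 0.16, adjusted p = 6.99e-05), and its 4 probe sets gave 2.63 to 2.82. The galectin gene Lgals3 was at 8.16, 8.09 and 8.48 and at 10.93, 10.34 and 10.99 (2.52, SE 0.18, adjusted p = 0.00023). These genes thus differed at both dim and bright signal.

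The small heat shock protein gene Cryab (2.80), the keratin gene Krt19 (2.53), the calcium-binding protein genes S100a6 (1.85) and S100a10 (0.43), the annexins Anxa1 (1.82) and Anxa3 (1.55) and the hyaluronan receptor Cd44 (1.51) passed in the same list. Of 22 measured injury markers 12 were higher, against 3.31% of all genes, 0 were lower and the median was 1.00; this list too was written after values had been seen and shares Timp1 and Lcn2 with the interleukin-6 list. Havcr1, the gene of kidney injury molecule 1, was at 4.13 to 5.51 in all arrays and did not pass (0.36, adjusted p = 0.595). Another probe set of Cryab, at the control level, differed by -0.28. Leaving out single arrays left 11 or 12 members past the threshold.

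Genes of the ureteric stalk, collecting duct and urothelium were higher in 7 of 22 and lower in 0, with a median of 0.71. Of all genes 3.31% were called higher and 1.78% lower. Upk3a, which encodes a plaque protein of urothelium, was at 4.35, 4.57 and 5.83 and at 7.15, 7.58 and 7.30 (2.43, SE 0.38, adjusted p = 0.00861), with 1 of 3 lower-run arrays above the control level. The keratins Krt7 (1.67) and Krt8 (1.16), the forkhead factor gene Foxa1 (1.78) and the sodium channel subunit gene Scnn1g (1.24) passed, along with Krt19 and Lcn2 of the injury list. Gata3, which marks the bud and its stalk (-0.09, adjusted p = 0.883), Krt18 (0.14, adjusted p = 0.784) and the water channel gene Aqp2 (1.15, adjusted p = 0.0548) did not. In the ureteric tip list, 1 of 12 genes differed, against 5.09% of all genes called in either direction. It was Myb (-0.97, adjusted p = 0.0468), and the median was 0.01. Ret, the receptor of the tip, lay under 5.45 in all 6 arrays. Without both Xist-high arrays 4 stalk genes passed.

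Proximal tubule genes were higher in 5 of 22, against 3.31% of all genes, and lower in 0, with a median of 0.74. The endocytic receptor gene Lrp2, megalin, was at 5.30, 5.27 and 5.65 and at 6.60, 6.72 and 6.95 (1.35, SE 0.23, adjusted p = 0.0125), with 1 of 3 lower-run arrays above the control level. Amn, which anchors its partner cubilin, was at least 2.64-fold higher (fitted difference 1.64). Keg1 (1.67), Ttc36 (1.26) and Lgals3 were the others, the last of which is also an injury marker. Cubn itself (1.02, adjusted p = 0.19), the transcription factor gene Hnf4a (0.71, adjusted p = 0.137) and the phosphate transporter gene Slc34a1 (1.14, adjusted p = 0.0902) did not pass, and most of these genes were dim. The call rested on single arrays, with 1 member passing without higher-run array 1 or 2 and 3 without higher-run array 3. Of 15 podocyte genes 4 were higher, against 3.31% of all genes, among them the surface sialomucin Podxl (1.29) and the adaptor gene Cd2ap (0.83). Foxc2 was lower (-0.57), against 1.78% of all genes called lower. That podocyte count was 2 without lower-run array 3, higher-run array 1 or higher-run array 2.

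The macrophage list was the cell type list with the highest median, 0.87. In it 7 of 20 genes were higher, against 3.31% of all genes, and 0 lower. Lyz2, the lysozyme of macrophages and neutrophils, was at 6.89, 6.92 and 7.55 in the lower run and at 9.25, 8.84 and 9.46 in the higher run (2.06, SE 0.22, adjusted p = 0.00162). The mannose receptor gene Mrc1 (1.48), the cathepsin Ctss (1.23), Cd53 (1.16), Tyrobp (1.04), Cd68 (0.94) and the growth factor receptor gene Csf1r (0.88) also passed. Other probe sets of Csf1r, both above the control level, differed by -0.10 and 0.99. The mean of the list ranged from 6.04 to 6.60 in the lower and from 6.87 to 7.24 in the higher run. Adgre1 (0.29), C1qb (0.27), Aif1 (0.33) and Ptprc (0.78) did not pass. The part of macrophages in the inflammatory genes was not tested. The count was 2 without any one array other than lower-run array 3, and 6 without that array.

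Immediate early genes, which cells switch on within minutes of a stimulus, were higher in 8 of 20 and lower in 0. The share called higher over all genes was 3.31%, and the median of the list was 0.82. Fos was at 7.08, 7.40 and 7.55 and at 9.37, 9.52 and 9.50 (2.12, SE 0.15, adjusted p = 0.000202), with every higher-run array above every lower-run array. Ier3 differed by 2.28, Egr2 by 1.11, Egr1 by 1.10, Nr4a1 by 1.07, Klf6 by 0.96, Dusp1 by 0.92 and Jund by 0.66. The count was 4 without higher-run array 1 and 5 without higher-run array 2. Of the 16 measured p53 targets 4 were higher, against 3.31% of all genes. They were the cell cycle inhibitor gene Cdkn1a (2.12), Pmaip1, which encodes the pro-apoptotic protein Noxa (2.22), Perp (1.71) and Ccng1 (0.61). Mdm2, a main target in the feedback on p53, differed by 0.03 (adjusted p = 0.962).

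Stress lists were mixed. For each of the 3 lists here, the shares over all genes were 3.31% called higher and 1.78% called lower. In the integrated and unfolded protein stress list, 5 of 24 genes were higher, namely Cebpb, Nupr1 (2.32), the asparagine synthetase gene Asns (1.15), Vldlr (0.71) and Xbp1 (0.53), with a median of 0.14, and Ddit3 (0.17) and Atf3 (0.57) did not pass. In the heat shock list the inducible chaperones Hspa1b (1.65) and Hspb1 (1.53) were higher, Hsph1 (-0.74) and Hsp90aa1 (-0.34) were lower, and the median of 16 genes was -0.19. In the list of oxidative stress and glutathione genes, also written after values had been seen, 5 of 26 were higher, led by the glutathione transferase gene Gsta2 (2.04, at least 3.25-fold) and the metallothionein gene Mt1. Mt1 was at 8.93, 9.10 and 8.89 and at 10.95, 10.92 and 10.88 (1.95, SE 0.10, adjusted p = 3.12e-05). Mt2 (0.75), Nfe2l2 (0.77) and Gpx4 (0.48) completed it, and the median was 0.06. A second probe set of Mt1, at the control level, differed by -0.70. That of Gpx4, bright with run means of 9.77 and 9.69, differed by -0.08. The oxidative stress count was 2 without lower-run array 3 or higher-run array 2 and 3 without higher-run array 1, the protein stress count was 3 without higher-run array 1 or 2, and 1 heat shock gene was lower without any 1 array.

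Sterol synthesis genes were higher in 5 of 17, against 3.31% of all genes, and lower in 0, with a median of 0.38. The 5 were Hmgcs1 (0.57), Fdft1 (0.63), Cyp51 (0.56), Nsdhl (0.59) and Msmo1 (0.64). These differences were small and close to one another at the probe sets used. Other bright probe sets of Hmgcs1 differed by only 0.13, 0.34 and 0.10, while the brightest others of Fdft1 and Cyp51 differed by 0.75 and 0.69. Of 23 genes of hypoxia and glycolysis, with a median of 0.14, 3 were higher, against 3.31% of all genes. They were Ndrg1 (1.94), the vascular growth factor gene Vegfa (0.90) and the hexokinase gene Hk2 (0.68). The carbonic anhydrase gene Car9, a hypoxia marker, differed by -0.84 (adjusted p = 0.0625). That median was -0.038 without both Xist-high arrays. In the sterol list 2 members passed without higher-run array 1 or 2 and 3 without lower-run array 3 or higher-run array 3, and in the hypoxia list 1 did without lower-run array 2 or 3 or higher-run array 1 or 2.

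Matrix genes differed in both directions. For each list in this paragraph, the shares over all genes were 3.31% called higher and 1.78% called lower. Outside the collagens, 7 of 27 were higher and 2 lower, with a median of 0.36: elastin (Eln, 1.55) and its crosslinking enzymes Lox (1.04) and Loxl1 (0.87), the proteoglycan Bgn (1.17), Mmp2 (0.75), Sparc (0.68) and Timp1 against the keratan sulfate proteoglycan Lum (-1.27) and the fibrillin Fbn2 (-0.97). Without higher-run array 1 the counts were 2 and 1, and without higher-run array 2 or 3 they were 4 and 1. In limma's test 0 of 18 collagen chains passed and 4 had an unadjusted p under 0.05, while 17 had a positive difference and the median was 0.23. A second probe set of Eln, at the control level, differed by -0.82. Smooth muscle genes were higher in 4 of 15, the actins Acta2 (0.97) and Actg2 (1.52), Tagln (1.03) and Cnn1 (1.29), with a median of 0.14. In the BMP and TGF-beta list 3 of 18 were higher, Ltbp2 (2.03), Ccn2 (1.6) and Id4 (0.57), and in the insulin-like growth factor list 2 of 18, Igfbp7 (1.82) and Igf1 (1.01). Igf2, the main fetal growth factor of the family, differed by 0.20 (adjusted p = 0.374). The smooth muscle count was 2 without lower-run array 3 or any 1 of the higher-run arrays, and that of the insulin-like growth factor list was 1 without lower-run array 1 or any 1 of the higher-run arrays.

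Among the largest falls were the embryonic globins, which primitive red cells from the yolk sac make. Hbb-bh1 was at 8.82, 8.0 and 7.97 in the lower run and at 5.55, 4.35 and 5.27 in the higher run, a difference of -3.21 (SE 0.36, adjusted p = 0.00162), with 1 of 3 higher-run arrays above the control level. Hbb-y, the brightest of them, was at 13.35, 13.38 and 13.24 and at 11.42, 11.27 and 11.52 (-1.92, SE 0.09, adjusted p = 3.12e-05). The embryonic alpha-like globin gene Hba-x was at 9.97, 8.67 and 9.43 and at 7.21, 7.23 and 7.44 (-2.07, SE 0.28, adjusted p = 0.00442).

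These were the 3 of 11 erythroid genes that passed, all of them lower, against 1.78% of all genes called lower. They passed without each single array. The other 8 genes of the list, among them the adult-type gene Hba-a1 and the erythroid factors Gata1 and Klf1, had no run mean above the control level of 5.45. The median of the list was -0.29 and changed sign, to 0.04 at the highest, when single arrays were left out. Globin probe sets of near-identical genes may share signal.

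Large falls were also seen outside the globins. Aplnr, the apelin receptor of growing vessels, was at 6.95, 5.88 and 6.94 and at 4.14, 4.21 and 4.15, at least 2.2-fold lower in the higher run (fitted difference -2.42, SE 0.32, adjusted p = 0.00367). Car3, a carbonic anhydrase, was at 10.06, 9.98 and 8.85 and at 7.78, 7.90 and 6.98 (-2.08, SE 0.34, adjusted p = 0.0104). The lipid-binding protein gene Fabp4, of adipocytes, macrophages and endothelium, was at 10.31, 9.98 and 11.26 and at 8.70, 8.98 and 9.08 (-1.6, SE 0.28, adjusted p = 0.0143). Its runs did not overlap, but the lower-run arrays were spread widely.

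The rule for named genes also gave the falls of Wdr86 (-1.78, at least 1.9-fold), Mtm1 (-1.70), Psg28 (-1.54), Trpc2 (-1.31), the proteasome subunit gene Psmc4 (-1.27) and Rimklb (-1.25). In 3 of the genes named as large falls a second probe set gave a difference near 0 or above it, 0.21 for Mtm1, 0.03 for Fabp4 and 0.09 for Rimklb, and the second probe set of Psmc4 gave -0.22. On the other side, it gave the rises of Hdc, the enzyme that makes histamine (3.61, at least 5.05-fold), of the aspartic protease Ctse (3.07), of Sprr2f (2.66), a small proline-rich protein of squamous epithelium, and of the fetal plasma protein Afp (2.57). Ctse had a second probe set at -0.79, and one of 5 for Afp was at -0.02.

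Part of the cell cycle list was lower in the higher run, by -0.94 to -0.47 in the genes that passed. Of 29 genes 10 were lower, against 1.78% of all genes, 0 were higher and the median was -0.47, with members between -1.26 and 0.12; in 22 of the 29 the higher run lay wholly below the lower, against 12.9% of all genes. Ccne2, the cyclin that opens S phase, was at 8.84, 8.92 and 8.54 and at 7.74, 8.0 and 7.74 (-0.94, SE 0.15, adjusted p = 0.00966). The mitotic checkpoint kinase gene Bub1 was at 9.22, 9.07 and 9.25 and at 8.34, 8.36 and 8.38 (-0.82, SE 0.11, adjusted p = 0.00404).

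The replication licensing genes Cdc6 (-0.80), Mcm6 (-0.59) and Mcm2 (-0.52), Gins1 (-0.55), the ribonucleotide reductase subunits Rrm1 (-0.48) and Rrm2 (-0.47), Ung (-0.72) and Top2a (-0.59) made up the rest. The proliferation marker Mki67 (-0.23, adjusted p = 0.397) and Cdk1 (-0.50, adjusted p = 0.0547) did not pass. The number past the threshold rested on the full set of arrays: it was 6 without higher-run array 3 and 3, 4, 1 and 3 without lower-run arrays 1 and 3 and higher-run arrays 1 and 2, and 1 without both Xist-high arrays, while the median stayed between -0.52 and -0.43 without single arrays.

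Stromal genes were divided. Foxd1, which defines the stromal progenitors, was at 10.43, 10.49 and 10.40 and at 9.89, 9.81 and 9.66 (-0.65, SE 0.10, adjusted p = 0.00598). Aldh1a2, the enzyme by which stroma makes retinoic acid, was at 10.76, 10.58 and 10.62 and at 10.04, 10.16 and 9.92 (-0.61, SE 0.10, adjusted p = 0.00961). Neither overlapped between runs, as was so for every gene that passed. Lum and Dcx (-0.64), which encodes a microtubule-binding protein, were lower too, while Penk (1.19), Snai2 (1.10) and the proteoglycan Dcn (0.70) were higher. So 4 of 21 were lower and 3 higher, against 1.78% and 3.31% of all genes, with a median of -0.22. Without higher-run array 1 the counts were 2 and 1, and of 4 probe sets of Dcx 2 at the control level differed by 0.89 and 0.23.

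In the retinoic acid list the binding proteins Crabp1 (-1.69, SE 0.22, adjusted p = 0.00318) and Crabp2 (-0.93) were lower together with Aldh1a2. The related synthetic enzyme Aldh1a3 was higher (1.59, SE 0.23, adjusted p = 0.00525). The list held 14 genes with a median of 0.07, and of all genes 1.78% were called lower and 3.31% higher. Of 29 Hox genes 3 were lower, against 1.78% of all genes, and 0 were higher, with a median of -0.21. The 3 were Hoxc8 (-1.15), Hoxb1 (-0.87) and Hoxa9 (-0.56). Hoxb1 was under the control level in both run means. Without higher-run array 1, 1 gene of the retinoic acid list was lower.

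Among nephron progenitor genes the called share was near that of all genes. Six2 was at 10.19, 9.72 and 10.17 and at 10.17, 9.95 and 10.32 (0.12, SE 0.15, adjusted p = 0.735), with the runs overlapping. Wt1 differed by 0.19 (adjusted p = 0.351) and Ctnnb1, the beta-catenin gene, by 0.17 (adjusted p = 0.192). Of the 18 progenitor genes 1 was lower, against 1.78% of all genes called lower and 5.09% called in either direction, the homeobox gene Meox2 (-0.80, SE 0.16, adjusted p = 0.0265), and the median was -0.25, with 3 of 18 positive.

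Wnt targets had 1 of 19 higher, against 3.31% of all genes, and a median of -0.14. That gene was Cd44, which is also in the injury list. Neither Axin2 (-0.27, adjusted p = 0.617) nor Lef1 (-0.26, adjusted p = 0.628), direct targets of the pathway, passed. Single members of other lists passed, against 5.09% of all genes called in either direction. Lower were the axonal protein gene Stmn2 (-1.61) of 20 genes of neurons and glia, Col9a1 (-1.01) of 13 genes of cartilage and the maternally expressed RNA gene Meg3 (-1.0) of 18 imprinted genes. Higher were the mesothelial gene Msln (1.14, at least 1.03-fold) of 18 genes of gonad and adrenal, and Gbp2 (1.26) of 15 interferon response genes. Many members of the neuron, gonad, muscle and cartilage lists were at the control level, with both run means under 5.45 in 13 of 20, 11 of 18, 11 of 17 and 7 of 13. The counts of the progenitor, gonad and interferon lists were 0 without most single arrays, that of the ureteric tip was 0 without any 1 of them, and that of the cartilage list was 0 without higher-run array 2 or 3.

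By limma's test 0 genes passed in 8 further lists, and the numbers at an unadjusted p under 0.05 follow, a share that was 19.7% over all genes. They were 3 of 17 genes of the pretubular aggregate and renal vesicle (median 0.01), 5 of 15 of the loop of Henle and distal tubule (0.07), 4 of 19 of endothelium (-0.31) and 1 of 17 of skeletal muscle (0.09). In the rest they were 3 of 14 of Hedgehog (-0.02) and 4 of 16 of Notch signalling (-0.15), 4 of 24 of oxidative phosphorylation (-0.07) and 0 of 14 ribosomal protein genes (0.00). On the values as deposited the ribosomal median was -0.33, and that of the interferon list turned from 0.02 to -0.06. Kdr, an endothelial receptor for vascular growth factor, differed by -0.80 (adjusted p = 0.125) with no overlap between runs. Over all genes the higher run lay wholly below the lower in 12.9%.

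**Figure D3:**
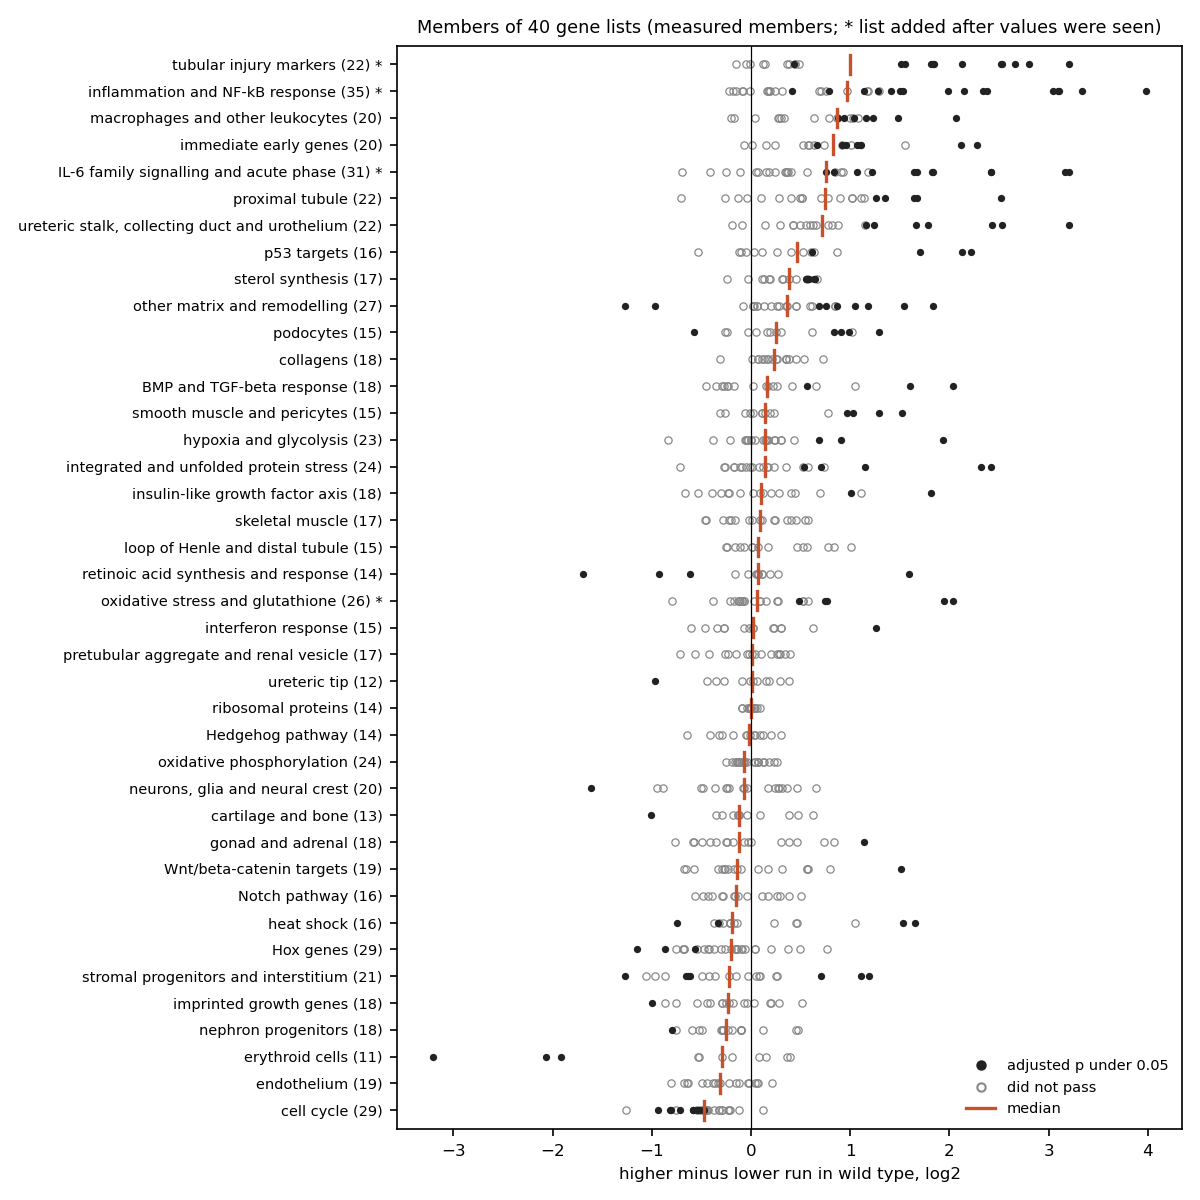
Each row is a gene list, with the number of measured members in brackets, and each circle a member's higher minus lower run difference in wild type on the log2 scale; filled circles passed limma's test and the orange tick is the median. The injury, inflammation, macrophage and immediate early lists have the highest medians (1.00, 0.97, 0.87 and 0.82) and the cell cycle list the lowest (-0.47).

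The same contrast in the 6 activated arrays, which the wild type test does not use, gave 345 called genes (2.78%), 246 higher and 99 lower. That count was 118, 217, 126, 90 and 167 without activated lower-run arrays 1 and 3 and higher-run arrays 1, 2 and 3. Of the 631 genes called in wild type, 587 had the same sign in the activated arrays, 386 of the 410 that were higher (94.1%) and 201 of the 221 that were lower (91.0%), against 66.0% of all genes. Both tests called 183 genes, 29.0% of the wild type and 53% of the activated calls, and 182 of them had the same sign. The median difference of the genes called higher was 1.08 in wild type, by which they were chosen, and 0.75 in activated arrays, and that of the genes called lower was -0.67 and -0.37. Across all genes, which are not independent replicates, Pearson's r between the differences was 0.519.

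The size of the change was larger in wild type, where the genes were chosen, in 505 of the 631. Among leading genes that were smaller in activated arrays, Bcl3 differed there by 2.73, Ptgs2 by 2.04, Ccl2 by 2.03, Clu by 1.68 and Cdkn1a by 0.67, and Ier3 differed by 0.84 (adjusted p = 0.11). Values closer to those of wild type, or past them, were 3.24 for Osmr, 3.29 for Ctse, 3.49 for Cryab, 2.28 for Socs3, 2.11 for Fos and 2.18 for Lyz2, and -2.82, -2.27 and -2.15 for the globins Hbb-bh1, Hbb-y and Hba-x. All of these but Ier3 passed in the activated arrays. Hdc, at 3.61 in wild type, differed by 1.24 in activated arrays (adjusted p = 0.209), and the difference between genotypes, 2.37, had an adjusted p of 0.081. List medians in activated arrays were 0.52 for inflammation, 0.68 for injury markers, 1.16 for macrophages, 0.58 for immediate early genes and -0.31 for the cell cycle, none of whose members passed there.

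**Figure D4:**
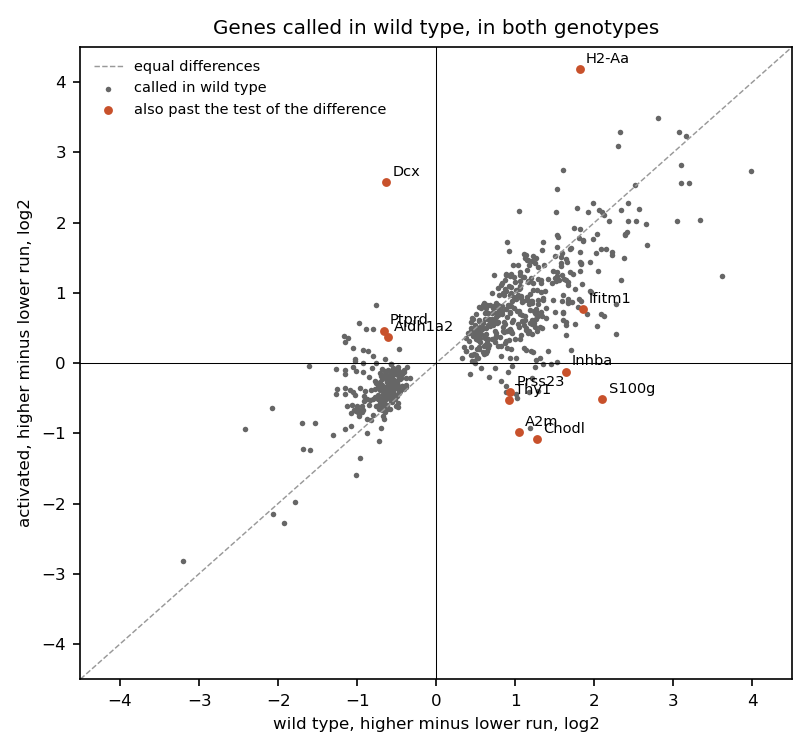
The 631 genes called in wild type, with the higher minus lower run difference in wild type arrays on the horizontal axis and in activated arrays on the vertical axis, both log2, and a dashed line where they are equal. Most points lie on the same side of zero in both (587 of 631); the 11 orange genes are those in which the run difference itself differed between genotypes.

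Few genes passed the test for a run difference that differed by genotype. With 3 arrays per group, a gene that did not pass may still differ. Cdkn1a, with a difference between genotypes of 1.45 (SE 0.29, limma interaction test, adjusted p = 0.0557), did not pass. The test of the difference between genotypes called 41 genes (0.331%) of all tested, and 11 of them were among the 631 called in wild type. It called 16 to 27 without any 1 of wild type lower-run array 1, the 3 wild type higher-run arrays, activated lower-run arrays 1 and 3 and activated higher-run arrays 1 and 2. S100g, the calbindin of small size that binds calcium in epithelium, was at 5.23, 5.37 and 5.70 in the lower and at 7.63, 7.18 and 7.80 in the higher wild type arrays (2.10, with 1 of 3 lower-run arrays above the control level), and differed by -0.51 in the activated arrays. Inhba, a subunit of activin, differed by 1.64 and -0.12. Dcx, lower by 0.64 on the log2 scale in wild type, was at least 4.58-fold higher in the higher run of activated arrays (fitted difference 2.58), and Aldh1a2 differed by -0.61 and 0.37. Six2, which did not pass in wild type, differed by 1.84 (SE 0.24, adjusted p = 0.00464) in the activated arrays.

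**Figure D5:**
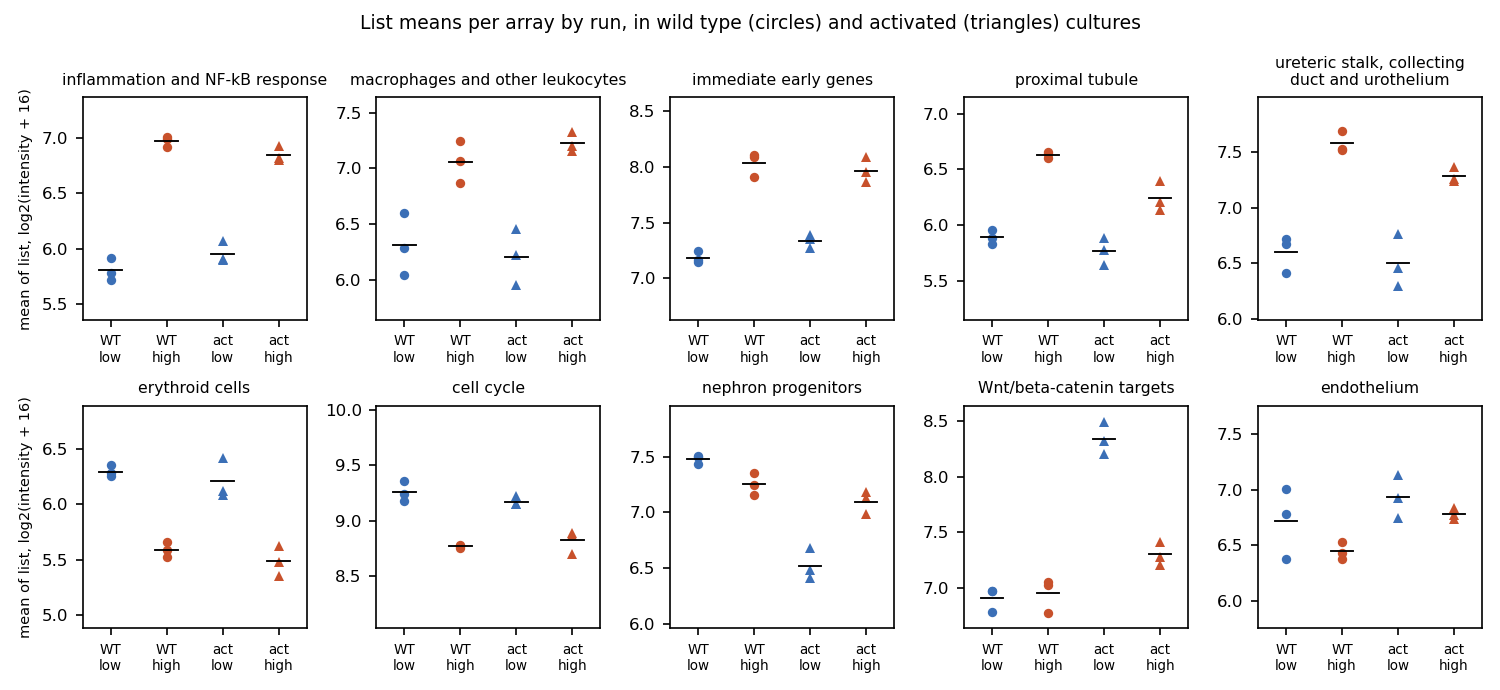
Mean signal of the measured members of 10 lists in each array, on the log2(intensity + 16) scale, for wild type (circles) and activated (triangles) cultures of the lower (blue) and higher (orange) run; short lines are means of 3 arrays and the vertical axes differ between panels. The macrophage, inflammation and immediate early means lie higher, and the erythroid and cell cycle means lower, in the higher than in the lower run in both genotypes, while the Wnt target mean lies between 6.78 and 7.05 in all 6 wild type arrays.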

How the data were processed

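Gene expression was measured on 12 Affymetrix mouse arrays made with a 3' IVT labelling kit, per the labels' protocols. The deposited values are intensities on a linear scale, 1 per probe set and array, as the authors placed them in the series matrix, and the software that summarised the probes was not given in the sources used here. Of 22690 probe sets 20380 named 1 gene symbol in GEO's platform annotation, 691 several, 1555 none and 64 were controls; 12369 of 12393 genes were found in the RefSeq gene table by gene ID. Intensities were turned into log2(intensity + 16) and quantile-normalised over the 12 arrays, and each gene was represented by its probe set with the highest mean. Run differences were fitted on the 6 wild type arrays with limma 3.58.1 in R 4.3.3 (eBayes with a variance trend, Benjamini-Hochberg adjustment over all genes, threshold 0.05), the activated arrays likewise, and the interaction on all 12. The test was also run on simulated data.

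"At least" folds set the bright run's mean against the highest signal, over all arrays, of the control transcripts that were not added. The number of arrays limits the precision, and files give no detection calls here. Figures were drawn with matplotlib 3.10.9.

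Named genes are the 15 largest rises and 15 largest falls among genes that passed, did not overlap between runs and had a run mean above the control level, up to 3 genes per list by adjusted p, and Foxd1, Aldh1a2, Six2, Wt1, Ctnnb1 and Xist, 130 in all. Other genes named as members of a list, as genes differing between genotypes or in the closing section were picked with their values in view, as were the lists of inflammation, interleukin-6 signalling, injury and oxidative stress and those of the closing section. The comparison and the other 36 lists were chosen with earlier results of these data known. Alternatives covered the scaling, the pseudocount, the probe set rule, the removal of dim genes, the variance model, covariates for Y-linked signal and for the 5' to 3' ratio, and arrays left out.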

Additional observations from a re-analysis of the deposited data

Results flagged for a closer look

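The run difference of 14 genes named in the text or called in wild type itself differed between wild type and activated cultures in limma's interaction test over the 12 arrays, where a positive value is a larger difference in wild type. The interaction was positive for S100g (2.61, SE 0.50, adjusted p = 0.0445), Chodl (2.36, SE 0.35, adjusted p = 0.00978), A2m, the protease inhibitor alpha-2-macroglobulin (2.03, SE 0.33, adjusted p = 0.0183), Inhba (1.76), Thy1, a surface glycoprotein of mesenchymal cells and neurons (1.44), the serine protease Prss23 (1.35) and Ifitm1, an interferon-induced membrane protein (1.09). In wild type these 7 were higher in the higher run, Chodl by 1.27 (at least 1.35-fold), A2m by 1.04, Thy1 by 0.92 and Prss23 by 0.94, while in activated arrays those 4 differed by -1.09, -0.98, -0.52 and -0.41. Ifitm1 differed by 1.85 and 0.76.

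It was negative for Dcx (-3.21, SE 0.29, adjusted p = 0.000337), H2-Aa, a class II histocompatibility gene (-2.37, SE 0.45, adjusted p = 0.0393), Six2 (-1.72), the gonadal and cardiac factor Gata4 (-1.71), the receptor phosphatase Ptprd (-1.13), Aldh1a2 (-0.99) and Gas1, a Hedgehog co-receptor (-0.73). H2-Aa was higher in the higher run in both genotypes, by 1.82 in wild type and at least 11.7-fold in activated arrays (fitted difference 4.18), where all 3 lower-run arrays were at the control level. Dcx was at that level in the same 3 arrays, so both interactions are fitted against background signal. Gas1 differed by 0.20 in wild type and 0.93 in activated arrays, Ptprd by -0.66 and 0.46, and Gata4 by -0.77 and 0.94, with all 4 group means of Gata4 under the control level of 5.45, so its interaction rests on signal not above background. In wild type the 3 probe sets of Gas1 ranged from -0.71 to 0.31.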

How the results depend on the processing

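Counts of genes past the threshold moved with some settings. For wild type, 631 became 300 without a variance trend, 172 without both Xist-high arrays, 213 at an adjusted p of 0.01 and 268 at a change of at least 2-fold, and 226 to 468 without single arrays. For activated arrays, 345 became 196 without a variance trend, 803 with array weights, 123 at an adjusted p of 0.01, and 90 to 426 without single arrays. For the interaction, 41 became 18 with arrays centred on their medians, 24 without a variance trend, 88 with array weights, 13 at an adjusted p of 0.01, and 16 to 47 without single arrays. The cause was not tested. Of 130 named genes 84 passed, and 47 of them passed in all settings other than the choice of probe set. A change of sign was seen in 8 of the 84, at other probe sets only: Afp (-0.021), Cryab (-0.28), Ctse (-0.79), Fabp4 (0.026), Mtm1 (0.21), Ndrg1 (-0.027), Rimklb (0.093) and Vldlr (-0.16). Among all 631 called genes, 343 had several probe sets, and in 254 of these every probe set had the same sign. Of 596 other probe sets of called genes 101 had the opposite sign. In 56 of those both run means were under the control level, and 0 of the 101 passed the threshold. The sign of the median was kept for 29 of 40 lists on the deposited and centred values, with a pseudocount of 1, without single arrays and without both Xist-high arrays, the settings it was computed for. No paired analysis was possible because the titles carry no replicate numbers. Signal near the control level limits what can be said of 55 called genes, for which 1 run gives only a bound, and of 26 others with 1 run mean at or under it. A further 17 called genes had both run means under that level, so their differences rest on signal not above background.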

Other observations

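Members of 4 further gene groups were counted after their values had been seen, so the counts describe these arrays and were not tested. Unlike those of the lists above, these counts were not repeated with arrays left out. Of 48 measured genes of the DNA replication machinery 47 had a negative run difference in wild type and 20 were lower in the higher run, against 1.78% of all genes, with a median of -0.50 in wild type and -0.32 in activated arrays. Rfc4, a subunit of the clamp loader, was at 9.79, 10.21 and 9.77 in the lower run and at 8.83, 8.60 and 8.96 in the higher run (-1.12, SE 0.15, limma adjusted p = 0.00388). The kinase Cdc7, which starts replication at origins, differed by -0.98, geminin (Gmnn), which blocks a second start, by -0.93, the nuclease and helicase Dna2 by -1.03 and the polymerase subunit Pold1 by -0.88. In 35 of the 48 the higher run lay wholly below the lower, against 12.9% of all genes. Of 47 genes of the nuclear pore and of transport through it 8 were lower, against 1.78%, and 0 higher, with a median of -0.17. Kpnb1, which carries proteins into the nucleus, was at 11.53, 11.93 and 11.87 and at 10.77, 10.91 and 10.40 (-1.08, SE 0.15, adjusted p = 0.00454), while its other bright probe sets differed by -0.067 and -0.24 and a dim one by 0.16.

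Lysosomal genes were higher in 14 of 53, against 3.31% of all genes, and lower in 0, with a median of 0.45, and 48 had a positive difference. Gpnmb, a glycoprotein of macrophages and lysosomes, was at 6.08, 6.16 and 6.20 and at 7.84, 7.36 and 7.79 (1.52, SE 0.20, adjusted p = 0.00368). The proteases Ctsc (1.14), Ctsb (0.93) and Ctsl (0.86) and the membrane protein Lamp1 (0.51) were higher too. Ctsl was bright in all arrays, at 11.27, 10.93 and 11.21 and at 11.99, 11.94 and 12.04. The macrophage list was higher in the same arrays, by a median of 0.87, and its part in the lysosomal genes was not tested.

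Of 19 genes of the major histocompatibility complex and antigen processing 3 were higher, against 3.31% of all genes, H2-Aa (1.82), its invariant chain Cd74 (1.06) and the class I light chain B2m (0.77), and all 19 had a positive difference, with a median of 0.37. H2-Aa was at 6.67, 6.81 and 7.18 and at 8.22, 8.71 and 9.18, with no overlap between runs.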
